A study of Mus musculus with 9 samples.

Results

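The 40 lysosomal and cathepsin genes described here were given as a list of symbols and taken from the 45777 genes of the deposited mouse table. They comprise 8 cysteine cathepsins, 3 other lysosomal peptidases, 2 cystatins, 8 membrane proteins and channels, 7 genes of lipid and sphingolipid breakdown, 6 glycosidases, 4 V-ATPase subunits and 2 regulators. All 40 symbols were found, and all 40 passed the filter on low counts that left 18716 genes for testing. Lysosomes are acidic organelles in which hydrolases break down protein, lipid and sugar chains. The V-ATPase pumps protons into them, membrane glycoproteins line them, and cystatins are small inhibitors that bind cysteine cathepsins. Macrophages of the lung are rich in lysosomes, and cathepsins released from them can cleave elastin and collagen.

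RNA was sequenced from lungs of male C57BL/6N mice in 9 libraries, 3 from each of 3 groups. EA-BN-H mice received lipopolysaccharide (LPS) at 0.5 mg/kg with a condensate of cigarette smoke (CSC) at 12.5 mg/kg into the nose on days 1, 6 and 13, and were given EA-BN, an ethyl acetate fraction of Boehmeria nivea leaves, by mouth at 200 mg/kg in 2% DMSO each day until day 14. COPD mice received the same LPS and CSC with the 2% DMSO vehicle, and NC mice received PBS into the nose with the vehicle, and all lungs were taken on day 15. The labels do not say whether each library came from a separate mouse, so p-values measure the spread between these libraries. LPS and CSC were always given together, so their effects cannot be told apart.

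The libraries held between 25232402 and 42156219 reads, of which 25.9% (EA-BN-H 3) to 59.1% lay on genes with an annotated mRNA, and 7SL RNA took 32.5% to 63.5%. Each of the 40 genes had at least 29 reads in every library, and 37 of them had at least 100. Levels per library are given below as CPM, reads scaled to a common library size by TMM, a scale on which libraries, but not genes, can be compared. Markers of alveolar type 2 cells, such as surfactant genes, summed to between 3063 and 6194 CPM in all libraries, and these defining markers of lung were well above 0 in all 9. In whole lung, more cells of a type and more RNA per cell cannot be told apart.

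Many lysosomal genes carry in their promoter the letters TCACGTGA, a palindrome around the core CACGTG that TFEB, the master activator of lysosomal genes, binds. RefSeq promoter sequences (GRCm38.p6, 250 bases before and 50 bases from the annotated start) were available for 33 of the 40 genes and were searched on both strands. CACGTG, which every TCACGTGA contains, lay in 10 of the 33 genes, against 8.09% of all genes with a promoter, and TCACGTGA lay in 6 of the 33, against 1.12% of all. These 6 stretches and that of Lamp1 are shown because they are the sites the pathway is known for, with TCACGTGA in capitals (in Lamp1, CACGTG).
Ctsd (chr7:142387905-142387940, minus strand): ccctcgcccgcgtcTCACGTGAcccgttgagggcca
Ctsa (chr2:164833746-164833798, plus strand): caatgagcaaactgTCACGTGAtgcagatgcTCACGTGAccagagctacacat
Mcoln1 (chr8:3500459-3500494, plus strand): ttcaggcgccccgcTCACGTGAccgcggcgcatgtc
Gla (chrX:134601179-134601247, minus strand): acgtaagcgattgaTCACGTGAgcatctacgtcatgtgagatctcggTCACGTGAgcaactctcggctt
Atp6v0d1 (chr8:105566047-105566082, minus strand): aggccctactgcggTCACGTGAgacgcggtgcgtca
Atp6v1a (chr16:44139370-44139405, minus strand): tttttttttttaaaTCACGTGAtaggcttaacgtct
Lamp1 (chr8:13159086-13159165, plus strand): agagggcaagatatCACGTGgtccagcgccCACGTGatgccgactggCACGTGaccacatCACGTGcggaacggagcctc

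The letters are not in this window of the promoters of Ctss, Cd68 and Laptm5, the 3 genes with the firmest difference between COPD and NC below. Their promoters are shown with GAGGAA or its reverse complement TTCCTC in capitals, letters found at the core of sites of PU.1, a factor that macrophages need. This motif was chosen after the values of the genes were seen. Each run covers the bases from -230 to 29 relative to the annotated start.
Ctss (chr3:95526556-95526814, plus strand): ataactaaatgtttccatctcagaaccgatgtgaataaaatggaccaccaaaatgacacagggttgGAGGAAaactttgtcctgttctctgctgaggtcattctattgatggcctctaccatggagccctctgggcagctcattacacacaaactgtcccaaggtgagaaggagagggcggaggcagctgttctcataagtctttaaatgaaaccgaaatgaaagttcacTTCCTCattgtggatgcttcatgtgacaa
Cd68 (chr11:69666142-69666400, minus strand): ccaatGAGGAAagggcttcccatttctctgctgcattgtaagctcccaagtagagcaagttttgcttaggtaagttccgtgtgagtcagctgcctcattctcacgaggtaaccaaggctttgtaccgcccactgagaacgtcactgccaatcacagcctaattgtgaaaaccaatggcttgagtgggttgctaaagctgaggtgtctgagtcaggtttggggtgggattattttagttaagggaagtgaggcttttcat
Laptm5 (chr4:130913086-130913344, plus strand): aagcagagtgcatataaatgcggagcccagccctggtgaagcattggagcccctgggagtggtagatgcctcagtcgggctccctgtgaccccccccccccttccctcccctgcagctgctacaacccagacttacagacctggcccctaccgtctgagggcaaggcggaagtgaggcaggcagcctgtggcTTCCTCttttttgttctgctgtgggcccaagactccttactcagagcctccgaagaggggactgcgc
GAGGAA lay in 17 of the 33 genes, against 31.3% of all genes with a promoter. It lay in 9 of the 12 genes with a promoter that reached the DEG thresholds (given below) for COPD over NC, and in 8 of the other 21. TCACGTGA lay in 1 of those 12, Ctsd, and in 5 of the other 21. The longer GAGGAAGT, also searched, lay in 4 of the 33, against 3.69% of all genes. It lay in 3 of the 12, with Ctss but without Cd68 and Laptm5, and in 1 of the other 21. The genes were split by the values that led to the GAGGAA motif, so these counts are not a test. A match is a description of letters and does not show binding.

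Between genes, levels were compared as TPM over genes with an mRNA, a scale per transcript length. In NC lungs the highest was Cst3, which encodes the secreted inhibitor cystatin C, at 643 ± 124 TPM (SD, n = 3), and it was followed by Psap, the precursor of the saposins that help lipid hydrolases, at 628 ± 87.2 TPM, a difference within their spread. Npc2, a carrier of cholesterol out of the lysosome, came next at 469 ± 44.6 TPM, then Ctsd at 438 ± 21.9, Lamp1 at 395 ± 15.5 and Ctsh at 380.3 ± 29.7 TPM. Only 7 of the 39 steps between neighbours in this order were larger than the larger SD of the pair. The lowest was Atp6v0d2 at 4.80 ± 1.33 TPM. Ctss ranked 19 of 40 in NC lungs and 2 of 40 in COPD lungs, at 1381 ± 578 TPM in COPD lungs and 84.6 ± 34.2 TPM in NC lungs.

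LPS and CSC against vehicle alone asks what the exposure did to these genes. Most were higher in COPD lungs, led by the macrophage-enriched genes Ctss, Cd68 and Laptm5. The fitted log2 fold change, COPD over NC, was above 0 for 37 of the 40 genes, with a median of 0.76, where the median over all genes tested was -0.02. By edgeR's quasi-likelihood test with Benjamini-Hochberg adjustment over all genes, 3 of the 40 rose at an adjusted p under 0.05 and 0 fell, where 1.53% of all genes tested rose. At the DEG thresholds, a change by a log2 of 1 or more with p under 0.05 before adjustment, 14 of the 40 were higher and 0 lower, where 7.12% of all genes were higher. All 3 COPD libraries lay above all 3 NC libraries for 18 of the 40, where 14.3% of all genes tested did. These shares also stand beside the counts of single roles below.

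**Figure D1:**
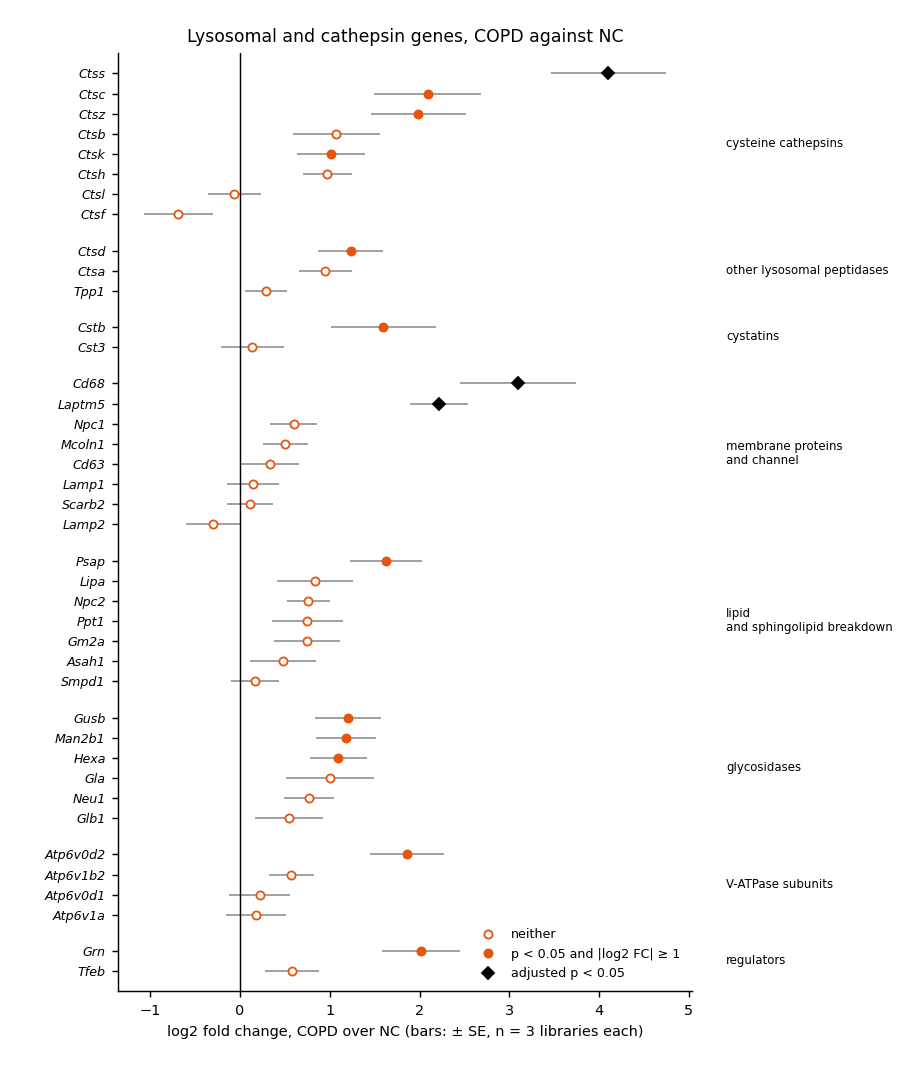
Log2 fold change (x axis, COPD over NC, bars ± SE, 3 libraries in each group) of the 40 lysosomal and cathepsin genes (y axis), grouped by role. Filled circles mark the DEG thresholds and black diamonds an adjusted p under 0.05 by edgeR, which Ctss, Cd68 and Laptm5 reached, and 37 of the 40 genes lie right of 0.

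Among the cysteine cathepsins the largest difference was in Ctss, which encodes cathepsin S, a protease that trims the invariant chain in antigen-presenting cells and cleaves elastin. Ctss (chromosome 3, 95526786 to 95556405, mm10) measured 388, 147 and 465 CPM in COPD 1 to 3, against 12.5, 23.7 and 22.1 CPM in NC 1 to 3. The lowest COPD library was above the highest NC library, and the log2 fold change was 4.10 ± 0.64 (SE), a fold of 17.2, with an adjusted p of 0.0261. Ctsc, the activator of granule serine proteases, measured 332, 147 and 378 CPM in COPD lungs, against 47.2, 67.3 and 86.7 CPM in NC lungs. Ctsz, a carboxypeptidase, measured 161, 64.4 and 168 CPM in COPD lungs, against 30.7, 31.2 and 37.3 CPM in NC lungs. These groups did not overlap either. The log2 fold changes were 2.09 ± 0.59 for Ctsc and 1.99 ± 0.53 for Ctsz, at adjusted p of 0.113 and 0.0919.

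Ctsk, a strong collagenase of osteoclasts, measured 37.4, 13.3 and 27.5 CPM in COPD lungs, against 18.5, 9.85 and 10.4 CPM in NC lungs. It reached the DEG thresholds with a log2 fold change of 1.01 ± 0.38, but COPD 2 lay inside the NC range. Ctsb and Ctsh, exopeptidases of the same family, had log2 fold changes of 1.07 ± 0.49 and 0.97 ± 0.27 without reaching both DEG thresholds, and the groups did not overlap for Ctsh. The family did not move as a block. Ctsl, cathepsin L, differed by -0.07 ± 0.30. Ctsf, cathepsin F, measured 6.21, 6.46 and 4.26 CPM in COPD lungs, against 8.42, 11.2 and 7.61 CPM in NC lungs, all COPD libraries below all NC libraries, with a log2 fold change of -0.68 ± 0.38 that did not pass the test (adjusted p = 0.435). In all, 4 of the 8 cysteine cathepsins were higher at the DEG thresholds, where 7.12% of all genes tested were. At the adjusted p 1 of the 8 rose, where 1.53% of all genes did.

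Of the other peptidases, Ctsd, the aspartic protease cathepsin D, measured 398, 228 and 413 CPM in COPD lungs, against 166, 152 and 125 CPM in NC lungs. The groups did not overlap, and the log2 fold change was 1.23 ± 0.36 (adjusted p = 0.128). Ctsa, which protects other hydrolases in a complex, and Tpp1, a tripeptidase, stood at 0.95 ± 0.30 and 0.29 ± 0.23 and were below the fold of the DEG thresholds. Of the cystatins, Cstb, the inhibitor inside cells, measured 29.8, 10.3 and 32.2 CPM in COPD lungs, against 11.4, 5.15 and 7.36 CPM in NC lungs. COPD 2 was below NC 1, and the log2 fold change was 1.60 ± 0.59. Cst3, the most abundant of these genes in NC lungs, measured 139.9, 47.0 and 104 CPM in COPD lungs, against 82.2, 93.3 and 90.0 CPM in NC lungs. Its log2 fold change was 0.13 ± 0.35, with a 95% interval of -0.65 to 0.92, while the groups overlapped on both sides.

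Of the 8 membrane proteins, Cd68 and Laptm5 rose. Cd68, the macrophage glycoprotein macrosialin (chromosome 11, 69664213 to 69666170), measured 27.1, 8.76 and 26.3 CPM in COPD lungs, against 3.55, 2.61 and 1.04 CPM in NC lungs, a log2 fold change of 3.10 ± 0.64 (adjusted p = 0.0469). Laptm5, a lysosomal protein of blood cells that lowers receptor signals (chromosome 4, 130912890 to 130936148), measured 178, 127 and 182 CPM in COPD lungs, against 24.3, 42.0 and 38.4 CPM in NC lungs, a log2 fold change of 2.22 ± 0.32 (adjusted p = 0.0235). In both genes every COPD library was above every NC library. The structural proteins found on lysosomes of nearly all cells had smaller values and did not pass the test. Lamp1, the most abundant of them, measured 204, 113 and 196 CPM in COPD lungs, against 179.5, 146 and 139.7 CPM in NC lungs, with a log2 fold change of 0.14 ± 0.29 and a 95% interval of -0.50 to 0.79. Lamp2, a partner of chaperone-mediated autophagy, Cd63, a tetraspanin, and Scarb2, the receptor that carries beta-glucocerebrosidase, had log2 fold changes of -0.30 ± 0.30, 0.33 ± 0.32 and 0.11 ± 0.25. Npc1, the membrane exporter of cholesterol, and Mcoln1, a calcium channel, stood at 0.60 ± 0.26 and 0.51 ± 0.25, with groups that did not overlap and a fold below the DEG threshold.

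Among the 7 genes of lipid and sphingolipid breakdown, Psap alone reached the DEG thresholds. It measured 1028, 544 and 1121 CPM in COPD lungs, against 293, 325 and 255 CPM in NC lungs, and was the gene with the most reads of all 40. The groups did not overlap, and the log2 fold change was 1.63 ± 0.40 (adjusted p = 0.0733). The other 6 were also above 0, between 0.17 ± 0.27 for Smpd1, acid sphingomyelinase, and 0.84 ± 0.42 for Lipa, acid lipase. Npc2 was at 0.76 ± 0.24 with groups that did not overlap, Gm2a, the GM2 activator, and Ppt1, a thioesterase, were at 0.75 ± 0.37 and 0.75 ± 0.40, and Asah1, acid ceramidase, was at 0.48 ± 0.37.

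Of the 6 glycosidases, Gusb, Man2b1 and Hexa were higher at the DEG thresholds, and all 6 log2 fold changes lay between 0.54 and 1.20. Gusb, beta-glucuronidase, measured 51.2, 23.9 and 49.9 CPM in COPD lungs, against 22.0, 19.5 and 12.7 CPM in NC lungs (1.20 ± 0.37, adjusted p = 0.139). Man2b1, lysosomal alpha-mannosidase, measured 114, 71.1 and 113 CPM in COPD lungs, against 39.8, 50.8 and 40.9 CPM in NC lungs (1.18 ± 0.33, adjusted p = 0.11). Hexa, the alpha subunit of hexosaminidase, measured 68.9, 37.2 and 66.5 CPM in COPD lungs, against 30.7, 23.8 and 26.4 CPM in NC lungs (1.09 ± 0.32, adjusted p = 0.12). In all 3 the groups did not overlap, with COPD 2 the lowest COPD library. Gla, alpha-galactosidase, Neu1, a sialidase, and Glb1, beta-galactosidase, were at 1.00 ± 0.49, 0.77 ± 0.28 and 0.54 ± 0.38.

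The V-ATPase held a pair of paralogs with unlike values. Atp6v0d2, the d subunit of the V0 sector known from osteoclasts and macrophages, measured 12.2, 9.43 and 7.78 CPM in COPD lungs, against 2.41, 2.33 and 3.36 CPM in NC lungs. The groups did not overlap, and the log2 fold change was 1.86 ± 0.41 (adjusted p = 0.0562). Atp6v0d1, the d subunit of most tissues, measured 40.8, 19.5 and 39.7 CPM in COPD lungs, against 35.9, 29.7 and 20.3 CPM in NC lungs, at 0.22 ± 0.34. The difference between the paralogs was not tested. Atp6v1b2, a B subunit of the V1 sector, measured 96.9, 57.4 and 98.0 CPM in COPD lungs, against 53.6, 53.7 and 62.6 CPM in NC lungs, at 0.57 ± 0.25, with COPD 2 inside the NC range. Atp6v1a, the catalytic A subunit, was at 0.18 ± 0.34.

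Of the regulators, Grn, which encodes progranulin, measured 180.5, 77.5 and 186 CPM in COPD lungs, against 31.1, 45.3 and 33.2 CPM in NC lungs. The groups did not overlap, and the log2 fold change of 2.02 ± 0.43 had an adjusted p of 0.0517, just past the threshold. Tfeb itself was at 0.58 ± 0.30 and did not pass the test.

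**Figure D2:**
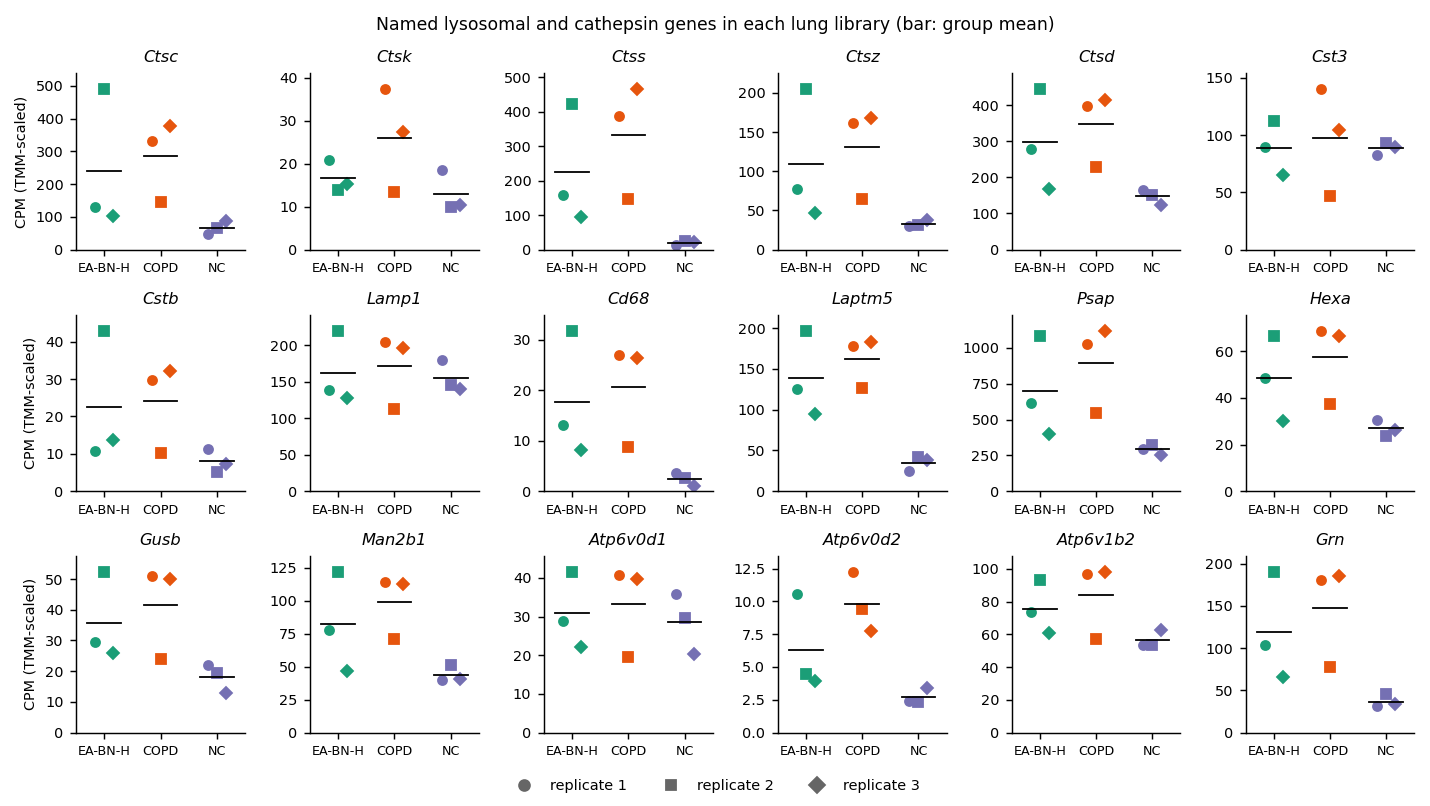
CPM (y axis, TMM-scaled, linear from 0) of 18 lysosomal and cathepsin genes in each library of EA-BN-H, COPD and NC (x axis), with marker shapes for replicates 1 to 3 and a bar at the group mean. COPD 2 is the lowest COPD library and EA-BN-H 2 the highest EA-BN-H library in most panels, as in Ctss (147 CPM in COPD 2, 422 CPM in EA-BN-H 2).

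The adjusted calls moved with the libraries in the fit, for these genes as for all genes. In all, 299 genes were called in either direction. With NC 1, NC 2, NC 3, COPD 1 or COPD 3 left out on its own, 0 of the 40 and at most 1 of all genes were called. Without EA-BN-H 2, 11 of the 40 and 996 of all genes were called, without EA-BN-H 3 it was 5 and 418, and without COPD 2 it was 4 and 256. DESeq2 called 15 of the 40 and 1402 of all genes. The Cd68 call was also lost with library totals (adjusted p = 0.0797) and without EA-BN-H 1 (adjusted p = 0.0602), at log2 fold changes of 3.15 and 3.10.

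Libraries of the same group differed in all roles at the same time. COPD 2 was the lowest COPD library in 36 of the 40 genes, where 44.2% of all genes tested had it lowest, and EA-BN-H 2 was the highest EA-BN-H library in 35 of the 40, where 43.0% of all genes did. Both held for 34 of the 40, against 26.2% of all genes. EA-BN-H 3 was the lowest EA-BN-H library in 36 of the 40, where 30.6% of all genes had it lowest. The summed level of the 40 genes was 3578, 6134 and 2670.0 CPM in EA-BN-H 1 to 3, 5761, 3024 and 5870 CPM in COPD 1 to 3, and 2455, 2448 and 2182 CPM in NC 1 to 3. COPD 2 and EA-BN-H 3 were thus closest to the NC libraries. In EA-BN-H 1 to 3 the share of 7SL RNA was 51.0%, 38.2% and 63.5% and that of reads on mRNA genes 40.4%, 52.8% and 25.9%, so the lower the summed level, the higher the 7SL share, whereas COPD 2, at 39.9% 7SL RNA and 49.9% on mRNA genes, lay between COPD 3 and COPD 1 in 7SL share. The part of these shares in the result was not tested. As a share of reads on mRNA genes the 40 genes took 0.871% ± 0.319 in EA-BN-H lungs, 1.02% ± 0.294 in COPD lungs and 0.513% ± 0.0209 in NC lungs (SD, n = 3 each). Above the highest NC library lay 22, 36 and 13 of the 40 genes in EA-BN-H 1 to 3, where 26.6%, 33.0% and 26.2% of all genes tested did, and 38, 19 and 37 of the 40 in COPD 1 to 3, where 29.6%, 29.9% and 29.1% of all genes did.

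Within COPD and within EA-BN-H, but not within NC, markers of monocytes and recruited macrophages had the order of libraries of the lysosomal genes. At the DEG thresholds 7.12% of all genes tested were higher in COPD than in NC, and at the adjusted p 1.53% rose. These shares also stand beside the counts of the other marker lists. Of these 11 markers (among them Ccr2, Csf1r, Adgre1 and C1qa), all 11 were higher at the DEG thresholds and 8 rose at the adjusted p. None of the 11 was at 0 in the NC libraries. Their summed level was 473, 1033 and 327 CPM in EA-BN-H 1 to 3, 868, 425 and 905 CPM in COPD 1 to 3, and 83.6, 137 and 135 CPM in NC 1 to 3. The order of the libraries within COPD and within EA-BN-H was that of the summed lysosomal genes. In NC it was not, as NC 1 was highest for the lysosomal genes (2455 CPM) and lowest for these markers. The order was not particular to them. Summed markers of lipid-associated macrophages (331 and 338 CPM in EA-BN-H 1 and 2) and of dendritic cells shared it within COPD and within EA-BN-H. Markers of lipid-associated macrophages (7, such as Gpnmb and Trem2) ranged from 145 to 338 CPM in EA-BN-H, from 227 to 401 CPM in COPD and from 121 to 169 CPM in NC, with 5 of 7 higher at the DEG thresholds in COPD. Summed markers of resident alveolar macrophages (10, such as Marco, Pparg and Siglecf) ranged from 78.6 to 162 CPM in EA-BN-H. They ranged from 102 to 188 CPM in COPD and from 74.5 to 113 CPM in NC. Of the 10, 5 had a log2 fold change above 0 for COPD over NC, at a median of 0.04. At the DEG thresholds 2 of the 10 were higher in COPD. Of the 188 CPM in COPD 1, Chil3 gave 108 CPM. The 8 neutrophil markers summed to 27.2 to 273 CPM in EA-BN-H, the highest in EA-BN-H 2, to 64.6 to 103 CPM in COPD and to 8.97 to 20.2 CPM in NC, and Ly6g, a defining marker, was at 0 in all libraries but EA-BN-H 2. Of the 7 dendritic cell markers 4 had a log2 fold change above 0 for COPD over NC, and their sum, at 80.1 to 160 CPM in EA-BN-H, 125 to 164 CPM in COPD and 36.8 to 85.6 CPM in NC, was in EA-BN-H and COPD mostly Itgax, which macrophages also express, while Cd209a was at -2.58. Of the 6 fibroblast markers 3 were above 0, all of them collagens, and Pdgfra, Dcn and Lum were below 0, while the sum was 2210 to 3778 CPM in EA-BN-H, 2915 to 4523 CPM in COPD and 1308 to 2456 CPM in NC. The part of these cells in the lysosomal values was not tested.

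**Figure D3:**
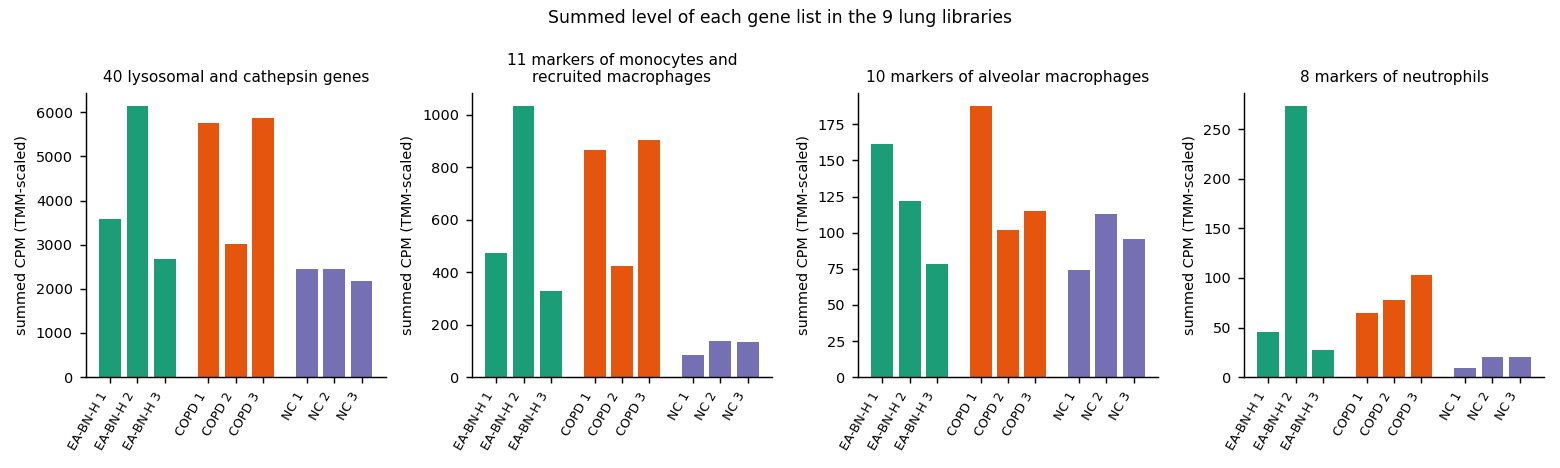
Summed CPM (y axes, TMM-scaled, from 0) of the 40 lysosomal and cathepsin genes and of 3 marker lists in each library of EA-BN-H, COPD and NC (x axes). The lysosomal genes and the markers of monocytes and recruited macrophages share their order of libraries within EA-BN-H and within COPD, with EA-BN-H 2 (6134 and 1033 CPM), COPD 3 and COPD 1 highest, whereas alveolar macrophage markers are highest in COPD 1. Markers of lipid-associated macrophages and of dendritic cells, not drawn here, have that order too.

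EA-BN against vehicle in exposed mice asks whether the fraction changed these genes, and no gene passed the test. By edgeR, 0 of the 40 were called between EA-BN-H and COPD at an adjusted p under 0.05, where 0% of all genes tested were called. Of the 40, 0 had an unadjusted p under 0.05, where 150 of all 18716 genes were higher and 146 lower at that p. DESeq2 also called 0 of the 40, and 3 of 27865 genes tested. At the DEG thresholds 0 of the 40 were found, where 0.801% of all genes were in either direction. The groups overlapped for all 40. Of all 18716 genes, 562 had every EA-BN-H library above every COPD library, and 622 had every one below. The log2 fold change, EA-BN-H over COPD, was below 0 for 38 of the 40 genes, with a median of -0.19, where the median over all genes was 0.00. Without EA-BN-H 3 the median was 0.04 and without EA-BN-H 2 it was -0.53. With limma on log2(TPM + 1) and log2(TPM + 0.1) it was -0.86 and -0.98, where the median over all genes was -0.44 and -0.70.

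The smallest p of the 40 was that of Ctsk, at 20.9, 14.0 and 15.2 CPM in EA-BN-H 1 to 3, against 37.4, 13.3 and 27.5 CPM in COPD 1 to 3. Its log2 fold change was -0.64, with a 95% interval of -1.49 to 0.21 and an adjusted p of 1. Atp6v0d2 measured 10.6, 4.43 and 3.91 CPM in EA-BN-H lungs, against 12.2, 9.43 and 7.78 CPM in COPD lungs, at -0.64 with an interval of -1.52 to 0.25. These 2 genes were among the few in which EA-BN-H 2 was not the highest EA-BN-H library. Ctss measured 159, 422 and 93.5 CPM in EA-BN-H lungs, against 388, 147 and 465 CPM in COPD lungs, at -0.57 with an interval of -1.82 to 0.68. The spread within each group covered most of the other, with EA-BN-H 2 among the high COPD libraries and COPD 2 among the low EA-BN-H libraries.

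The same held for the other genes with high COPD values. Cd68 measured 13.1, 31.8 and 8.24 CPM in EA-BN-H lungs, against 27.1, 8.76 and 26.3 CPM in COPD lungs, at -0.22 with an interval of -1.52 to 1.08. Laptm5 measured 125, 197 and 95.0 CPM in EA-BN-H lungs, against 178, 127 and 182 CPM in COPD lungs, at -0.23 with an interval of -0.91 to 0.46. Psap measured 616, 1082 and 399 CPM in EA-BN-H lungs, against 1028, 544 and 1121 CPM in COPD lungs, at -0.36 with an interval of -1.23 to 0.51. For each of the 3, EA-BN-H 1 and EA-BN-H 3 lay below COPD 1 and COPD 3, and EA-BN-H 2 lay near or above them.

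All 40 intervals held 0. A fall by a log2 of 1, that is to 50% of the COPD level, lay inside the interval of 18 genes, a doubling inside that of 3, and for the other 22 the interval excluded a change of that size in either direction. Narrow intervals were those of Tpp1 (-0.52 to 0.50), Scarb2 (-0.72 to 0.39) and Npc2 (-0.73 to 0.32), and wide ones those of Ctss, Ctsc (-1.51 to 1.03) and Cd68. These data therefore do not show that EA-BN-H and COPD lungs were alike in these genes, least of all in those of the wide intervals.

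**Figure D4:**
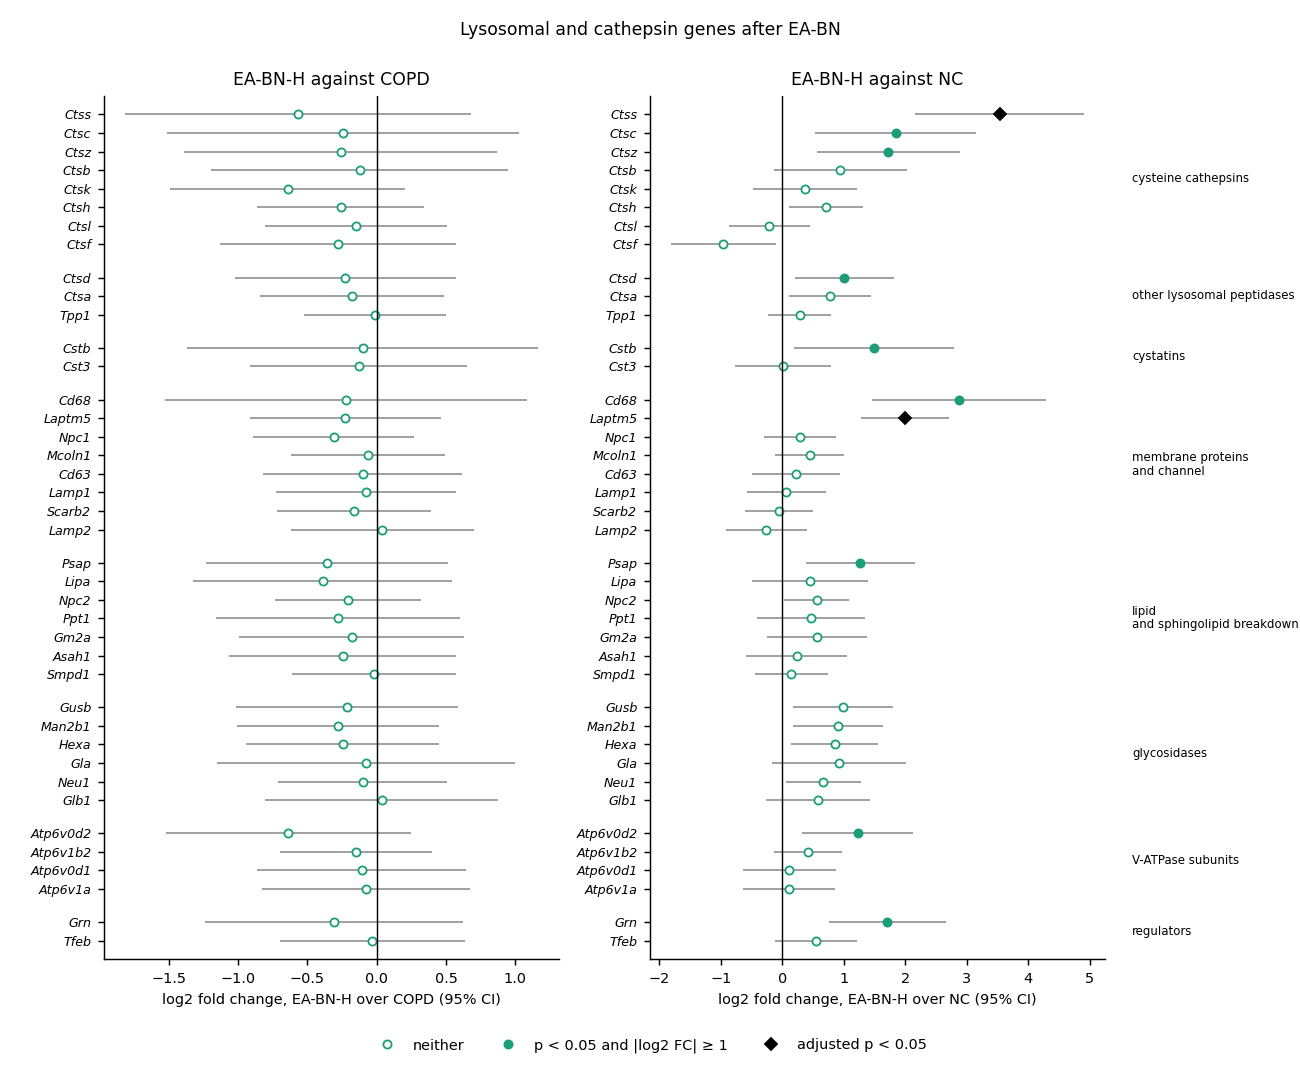
Log2 fold change with 95% interval (x axes) of the 40 lysosomal and cathepsin genes (y axes, by role) for EA-BN-H over COPD (left) and EA-BN-H over NC (right), 3 libraries in each group. On the left all 40 intervals cross 0, and on the right Ctss and Laptm5 (black diamonds) passed an adjusted p under 0.05.

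EA-BN-H lungs against NC lungs, a comparison that shares the NC libraries with the first and its treated libraries with the second, asks how far exposed mice that were given EA-BN stood from unexposed mice. The log2 fold change was above 0 for 36 of the 40 genes, with a median of 0.56, where the median over all genes was 0.00. At the adjusted p, 2 of the 40 rose, where 1.04% of all genes tested rose. At the DEG thresholds 10 of the 40 were higher and 0 lower, where 6.66% of all genes were higher. All 3 EA-BN-H libraries lay above all 3 NC libraries for 12 of the 40, where 11.3% of all genes did. With limma on log2(TPM + 1) and log2(TPM + 0.1) of the authors' TPM, the median turned below 0, to -0.084 and -0.11. It stayed above the median over all genes, which was -0.34 and -0.59 in these fits. Above 0 were 18 and 16 of the 40.

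Ctss rose by a log2 of 3.53 ± 0.62 (adjusted p = 0.0395) and Laptm5 by 1.99 ± 0.32 (adjusted p = 0.0388), where COPD over NC gave 4.10 and 2.22 for them. Both calls were lost with library totals (3.33 at adjusted p = 0.0741 for Ctss, 1.71 at adjusted p = 0.0904 for Laptm5), with only the groups compared (3.50 and 1.97, both at adjusted p = 0.115) and with limma on log2(TPM + 1) (2.50 at adjusted p = 0.163, 1.18 at adjusted p = 0.234). Cd68 was at 2.87 ± 0.64, with an adjusted p of 0.0618 that missed the threshold, although every EA-BN-H library lay above every NC library. The other genes at the DEG thresholds were Ctsc, Ctsz, Grn, Cstb, Psap, Atp6v0d2 and Ctsd, between 1.85 ± 0.59 for Ctsc and 1.01 ± 0.36 for Ctsd. Grn measured 103, 189.8 and 65.4 CPM in EA-BN-H lungs, against 31.1, 45.3 and 33.2 CPM in NC lungs, at 1.71 ± 0.43 (adjusted p = 0.0854). Cstb measured 10.7, 43.0 and 13.6 CPM in EA-BN-H lungs, against 11.4, 5.15 and 7.36 CPM in NC lungs, and EA-BN-H 1 lay inside the NC range.

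The 3 glycosidases at the DEG thresholds in COPD were below the fold of those thresholds here, at 0.99 ± 0.36 for Gusb, 0.90 ± 0.33 for Man2b1 and 0.85 ± 0.32 for Hexa, and the difference between the comparisons is that of EA-BN-H and COPD, which did not pass the test. Hexa measured 48.7, 66.8 and 30.3 CPM in EA-BN-H lungs, against 30.7, 23.8 and 26.4 CPM in NC lungs, with EA-BN-H 3 just below the highest NC library. Ctsf measured 6.97, 2.41 and 4.60 CPM in EA-BN-H lungs, against 8.42, 11.2 and 7.61 CPM in NC lungs, with all EA-BN-H libraries lower. Its log2 fold change was -0.96 ± 0.38 (adjusted p = 0.275). Of the 40, 1 gene, Ctsf, was below 0 with an unadjusted p under 0.05, where 962 of all 18716 genes tested were. With NC 1, NC 2, NC 3, COPD 1 or COPD 3 left out on its own, 0 of the 40 and at most 1 of all genes were called, where 211 of all genes were called with all libraries. Without EA-BN-H 3 it was 4 of the 40 and 419 of all genes. The number of the 40 at the DEG thresholds was 5 without EA-BN-H 2 and 16 without EA-BN-H 3. How many of all genes reached those thresholds in these fits was not counted.

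Transcripts of some of these genes were split by the authors' estimation in ways that differed between libraries. In 8 of the 40 genes the transcript with the most reads was not the same in all libraries, among them Psap, the gene with the most reads. Its predicted variants X1 and X2 took 55.4% and 17.3% of its reads in EA-BN-H 1, 50.5% and 29.4% in EA-BN-H 2, and 61.3% and 7.39% in EA-BN-H 3. They took 50.5% and 27.5% in COPD 1 and 46.1% and 29.8% in COPD 3, but 1.76% and 0.577% in COPD 2. In NC 1 to 3, X1 took 2.52%, 1.62% and 2.92%, and X2 took 1.71%, 0.317% and 1.86%. Variant 1 took the reverse part, between 2.99% and 10.9% in EA-BN-H libraries, 4.70%, 82.5% and 4.80% in COPD 1 to 3, and between 66.6% and 83.0% in NC libraries. COPD 2 thus lay with the NC libraries, and all 3 EA-BN-H libraries lay with COPD 1 and COPD 3. Variant 6 took 6.99% and 6.52% in COPD 1 and COPD 3 and 8.82% in EA-BN-H 2, against at most 0.409% in the other 6 libraries. The 8 variants are 2567 to 2660 bases long and nearly identical, so the shares are estimates, given with no test for a gene chosen after its values were seen. The level of Psap itself is the sum of all 8 variants and does not depend on the split.

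**Figure D5:**
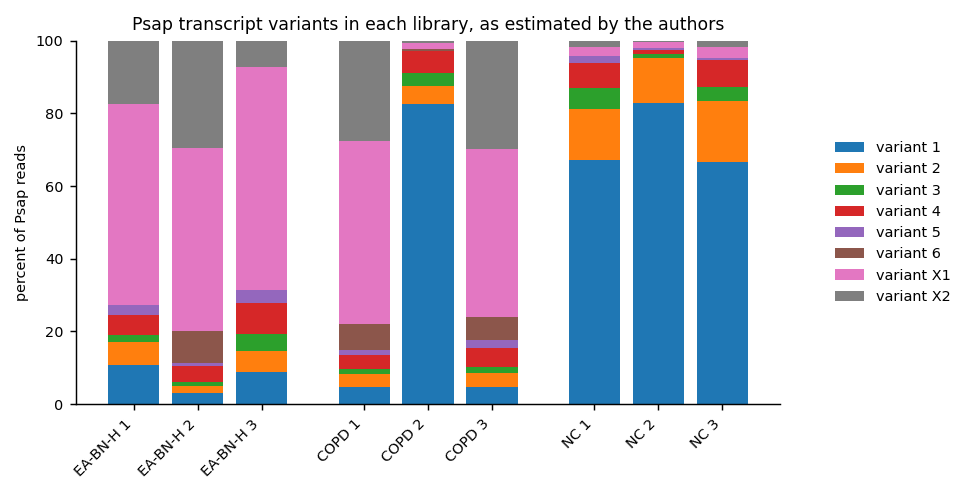
Percent of Psap reads (y axis, stacked to 100) on each of 8 transcript variants in each library of EA-BN-H, COPD and NC (x axis), as the authors' estimation split them. Variant X1 leads in EA-BN-H 1 to 3, COPD 1 and COPD 3, whereas variant 1 leads in COPD 2 (82.5%) and in NC 1 to 3.

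Other genes of the pathway were described by lists of 113 further lysosomal genes, of which 108 were tested. For COPD over NC their median log2 fold change was 0.38, where that of all genes tested was -0.02. At the adjusted p 5 rose and 0 fell, where 1.53% of all genes rose. At the DEG thresholds 20 were higher and 0 lower, where 7.12% of all genes were higher. These shares also stand beside the counts of the single lists below. The transporters gave the largest values. Slc11a1, a metal ion exporter of phagosomes, averaged 41.2 CPM in COPD and 2.19 CPM in NC lungs (log2 fold change 4.23, adjusted p = 0.0261), and Slc29a3, a nucleoside transporter, 30.2 CPM in COPD and 6.44 CPM in NC lungs (2.23, adjusted p = 0.0485). Slc36a1, an amino acid transporter, averaged 36.4 CPM in COPD and 15.9 CPM in NC lungs (1.19, adjusted p = 0.0305), and Slc15a3, a peptide and histidine transporter, was at 3.16 (adjusted p = 0.065).

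Among 17 further V-ATPase subunits only Tcirg1, the a3 subunit known from osteoclasts, passed the test, at 140.8 CPM in COPD and 49.6 CPM in NC lungs (log2 fold change 1.50, adjusted p = 0.0319). Of 35 other soluble hydrolases 11 were higher at the DEG thresholds, and Ppt2, a thioesterase, passed the adjusted p (1.36, adjusted p = 0.0335). Pla2g15, a phospholipase, Dnase2a, the lysosomal DNase, and Acp5, tartrate-resistant acid phosphatase, were at 1.36, 1.00 and 2.07 and reached the DEG thresholds. Among 5 tested cathepsins and legumain, Lgmn, legumain, Ctsw, a cathepsin of cytotoxic lymphocytes, and Napsa, a surfactant-processing protease of type 2 cells, were higher at the DEG thresholds, at 1.49, 2.34 and 1.07. Of the 25 regulators and sorting receptors 0 reached the DEG thresholds, at a median of 0.14. Between EA-BN-H and COPD, 0 of the 108 were called at the adjusted p, where 0% of all genes were. None reached the DEG thresholds, where 0.801% of all genes did. At an unadjusted p under 0.05 stood 1 of them, where 150 of all 18716 genes were higher and 146 lower. For EA-BN-H over NC the median was 0.26, where that of all genes was 0.00. At the adjusted p 3 rose, where 1.04% of all genes did, and 16 were higher at the DEG thresholds, where 6.66% of all genes were.

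Reads of 9 of the 40 genes can in part belong to a neighbour, because their exons in GENCODE vM21 overlap an antisense gene and the sources do not state whether strand was used in counting. These were Ctsl (26.8% of exonic bases), Ctsa (17.4%), Ctsb (12.8%), Hexa (12.8%), Lamp1 (9.31%), Npc1 (5.31%), Ppt1 (3.51%), Grn (1.96%) and Ctsz (0.694%), whereas Ctss, Cd68, Laptm5, Psap and Atp6v0d2 had no such overlap. Ctsd, with Ctsl and Glb1, shares exonic bases with a gene on its own strand.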

How the data were processed

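Lung RNA of 9 libraries was sequenced in pairs. Per the labels, libraries were made with a TruSeq Stranded Total RNA Gold kit, whereas the study's methods name a TruSeq RNA kit; whether strand was used in counting is not given in the sources used here. Per the submitters' processing notes, reads were trimmed (Trimmomatic 0.38), aligned to mm10 (HISAT2 2.1.0) and assembled and quantified (StringTie 2.1.3b), and DESeq2 is also listed. The deposited table held estimated counts of reads per transcript (each estimated count was deposited as a whole number, so no rounding was added), and the FPKM and TPM that the authors computed beside them. Columns were matched to libraries by name, and 0 columns of per-sample values lacked a library.

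Counts of all transcripts of a gene were summed. Genes kept by filterByExpr were fitted in edgeR 4.0.16 (R 4.3.3) with TMM factors, all 3 groups in 1 quasi-likelihood model with a robust prior, and p-values were adjusted by Benjamini-Hochberg over 18716 genes. The DEG thresholds are numerically those of the study, which used DESeq2's lfcShrink; here they were applied to edgeR fold changes that were not shrunken, so the sets can differ. For levels between genes, TPM was summed per gene and rescaled over genes with an mRNA. The limma fits named next used the authors' TPM, summed per gene but not rescaled. Alternatives were DESeq2 1.42.0, limma 3.58.1 on log2(TPM + 1) and log2(TPM + 0.1), other scalings and filters, a replicate block, a fit of only the groups compared, and each library left out. A prior not estimated robustly and the GAGGAA and GAGGAAGT motifs were chosen after seeing the data. The scripts were tested on simulated data.

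The genes and lists were chosen with earlier results of these data known. Values per library are given for genes at either threshold in any comparison, the most abundant gene of each role, the gene with the smallest p for EA-BN-H against COPD and both V0 d subunits; of further lists, up to 4 genes at the DEG thresholds with the smallest p are named.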

Additional observations from a re-analysis of the deposited data

How the results depend on the processing

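For COPD against NC, 3 of the 40 genes and 299 of all genes were called. The numbers were 15 and 1402 with DESeq2, 9 and 724 with only the groups compared, 5 and 343 with no filter, 5 and 410 with at least 1 count in every library, 2 and 95 with library totals, and 0 and 3 with limma on log2(TPM + 1), so the calls over all genes moved as well. The number of the 40 ranged from 0 to 11 as each library was left out, while the number at the DEG thresholds ranged from 11 to 21 and the median log2 fold change from 0.64 to 1.03. For EA-BN-H against COPD, 0 of the 40 were called in every fit run, and DESeq2 called 3 of all genes. The number at the DEG thresholds was 2 with library totals, 1 and 4 with limma on log2(TPM + 1) and log2(TPM + 0.1), and 0 to 3 with libraries left out, where the median ranged from -0.53 to 0.04. The median was -0.86 and -0.98 with limma. For EA-BN-H against NC, 2 of the 40 and 211 of all genes were called. The numbers were 7 and 1296 with DESeq2, 0 and 5 with library totals, 0 and 0 with only the groups compared, and 0 and 11 with limma at either pseudocount, and 0 to 4 of the 40 were called with libraries left out. The number at the DEG thresholds was 4 with limma at either pseudocount and 5 to 16 with libraries left out, and the median was -0.084 and -0.11 with limma and 0.39 to 0.74 with libraries left out. Limma on TPM also moved the median of all genes, by -0.44 and -0.70 for EA-BN-H against COPD and by -0.34 and -0.59 for EA-BN-H against NC, and library totals moved it by -0.41 and -0.38. Other causes were not tested. In the alternative fits, the number of all genes at the DEG thresholds was not counted.

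In the alternative fits, single genes were followed only for 18 of the 40, those chosen by the rule above for values per library. For EA-BN-H against NC, directions turned in 5 of these 18 genes. Of all 40, 36 were above 0 by edgeR, and 18 and 16 with limma on log2(TPM + 1) and log2(TPM + 0.1). Genes outside the 18 therefore turned as well, and they are not listed here. Cst3, at 0.01, was at -0.0066 with DESeq2, -0.0025 with RLE factors, -0.30 with library totals, -0.020 with scaling on mRNA genes, -9.97e-05 with no filter, -0.013 with at least 1 count in every library, -0.018 with only the groups compared, and -0.72 and -0.73 with limma. Library totals gave -0.23 for Lamp1 and -0.18 for Atp6v0d1. Limma gave -0.65 and -0.67 for Lamp1, -0.52 and -0.60 for Atp6v0d1, -0.22 and -0.27 for Ctsk (0.37 by edgeR), and -0.26 and -0.30 for Atp6v1b2 (0.42 by edgeR). With libraries left out, COPD against NC ranged from -0.22 to 0.47 for Cst3 and from -0.0025 to 0.37 for Lamp1. EA-BN-H against NC ranged from -0.16 to 0.31 for Atp6v0d1, -0.20 to 0.20 for Cst3 and -0.22 to 0.22 for Lamp1. EA-BN-H against COPD ranged from -0.38 to 0.085 for Atp6v0d1, -0.95 to 0.12 for Cd68, -0.46 to 0.23 for Cst3, -0.99 to 0.23 for Cstb, -1.29 to 0.13 for Ctsc, -0.64 to 0.062 for Ctsd, -1.08 to 0.11 for Ctsz, -0.54 to 0.0081 for Hexa, -0.36 to 0.073 for Lamp1 and -0.68 to 0.0081 for Man2b1.

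With the replicate number as a block, 0 of the 40 and 0 of all genes were called in each comparison. Deviations of same-numbered libraries had correlations of -0.24 to 0.13. Libraries of unlike number were not compared, so these values do not settle whether the numbers pair the libraries.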
